A study of Mus musculus with 12 samples.

Results

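Acinar cells are the enzyme-secreting cells of the exocrine pancreas. The signals of 10 acinar genes that encode no digestive enzyme were followed here in RNA of macrophages sorted from pancreatic tumor tissue and from normal pancreas. The genes are the transcription factors Ptf1a, Rbpjl, Bhlha15, Nr5a2 and Gata4, the granule and secretory proteins Gp2, Sycn, Zg16 and Spink3, and the hormone receptor Cckar. They were chosen by gene name among 27274 named genes of the array, where Spink3 is the older name of Spink1, and all 13 of their probes were read. Rbpjl, Nr5a2 and Gp2 have 2 probes each.

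Macrophages had been sorted by flow cytometry from pancreatic tumor tissue and from normal pancreas of mice labelled female, C57/B6 and 4 to 5 months old, with 6 arrays per group. In each group 2 arrays carry the same sample name and were averaged, which left 5 samples per group: tumor replicates 1, 2, 3, 4 with 6, and 5, and normal replicates 1, 2 with 3, 4, 5, and 6. The genotype is given as not provided. The protocol describes implanted tumors, the design text names wild-type, KPC and FLT3-CRE/LSL-YFP mice, and no label ties a sample to one of these models. KPC mice form pancreatic ductal tumors through engineered alleles, and FLT3-CRE/LSL-YFP mice mark descendants of Flt3-expressing blood progenitors.

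Ptf1a is a basic helix-loop-helix factor that works in a complex, PTF1, with an E protein and either Rbpj or its pancreatic relative Rbpjl. The complex containing Rbpjl drives enzyme genes in mature acini. Bhlha15 (Mist1) sets up the secretory apparatus, Nr5a2 is a nuclear receptor that works with PTF1 on exocrine genes, and Gata4 is a zinc finger factor of early pancreas formation. Gp2 is the main protein of the zymogen granule membrane, Sycn (syncollin) and Zg16 are bound to the granule membrane from inside, Spink3 is a trypsin inhibitor, and Cckar receives cholecystokinin, the gut hormone that triggers enzyme release.

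All values below are log2 processed signal minus the 75th percentile of its array, so 0 is the level of that percentile. Apart from list means, summed signals and shares, signals of different probes were not set against each other. A difference is tumor minus normal with its standard error (SE), and a gene was called when limma gave it an adjusted p under 0.05 over the 16399 genes tested. The sample values of a group are listed in the replicate order given above. Signal came from cDNA amplified before labelling, so a fold is one of amplified signal. The source of acinar RNA in the sorted populations was not measured. Fewer acinar cells, less RNA per acinar cell and any other source of a difference cannot be told apart. Whether each sample name is its own animal is not labelled. The p-values therefore reflect the variation among these samples, part of which may be technical.

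Per array, 39.3% to 58.7% of 39429 probes exceeded background clearly, the highest share being that of normal replicate 6. All 18 genes of a macrophage identity list were tested and 0 were called by limma (3 at an unadjusted p under 0.05), with list means of 4.48 to 4.88 in tumor samples and 4.41 to 5.03 in normal samples. The smallest p in that list were those of the transcription factor Maf (-0.99 ± 0.27, limma adjusted p = 0.145) and of the macrophage surface receptor Adgre1 (-0.80 ± 0.24, 0.195). Over all 16399 genes tested, 2126 had an unadjusted limma p under 0.05. That share stands beside the counts at this level for this list and the lists below. In tumor samples, 14 digestive enzymes summed to 0.00842% to 0.194% of the signal of all tested genes, against 0.464% to 2.79% in normal samples. Normal replicate 6 had the lowest enzyme share of the normal samples. The part of the enzyme-bearing RNA in the differences below was not tested.

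Of the 10 genes, 8 were tested, having a probe that stood well above background on 3 or more of a group's 6 arrays. Of these, 7 were called lower in tumor and 0 higher, where 0.854% of all tested genes were called, 0.512% lower and 0.341% higher. Of the 13 probes, 10 passed the same filter and 8 of them were called lower in a fit over probes, where 0.463% of all tested probes were. Bhlha15 missed the threshold, and Ptf1a and Gata4 were not tested. Differences ran from -6.43 to -2.99 with a median of -4.45, against -0.0044 over all genes tested. Bhlha15, Nr5a2 and Cckar passed the filter through the normal arrays alone, so a difference was built into their selection and their count is a description. Rbpjl, Sycn, Zg16 and Spink3 were well above background on all 12 arrays, and Gp2 on 5 tumor and 6 normal arrays. In 6 of the 8 genes, all but Bhlha15 and Nr5a2, every tumor sample lay below every normal sample, which 1.66% of all tested genes did.

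**Figure D1:**
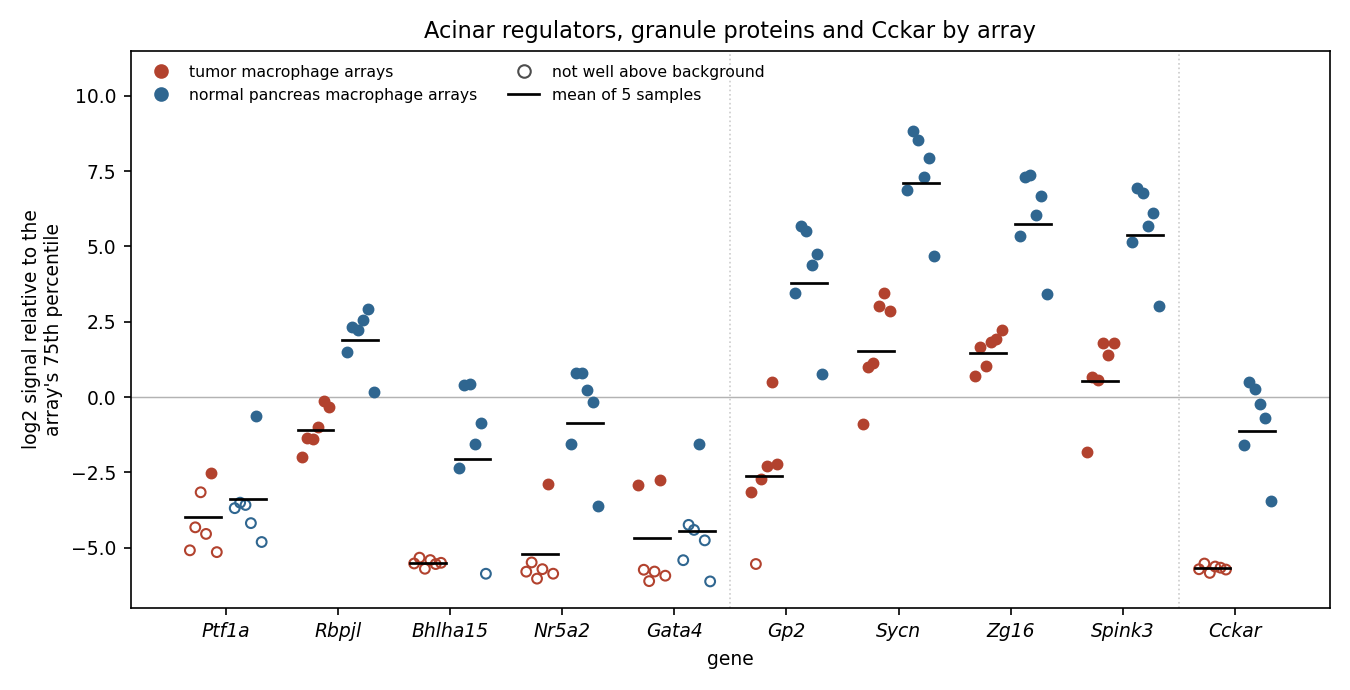
Log2 processed signal minus the array's 75th percentile for 1 probe of each of the 10 genes, with each point 1 array of tumor (red, left) or normal pancreas (blue, right) macrophages. Open points are not well above background, and lines are means of 5 samples. Tumor and normal points do not overlap for the granule genes and Cckar, and most points of Ptf1a and Gata4 are open in both groups.

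Among the regulators, Rbpjl was the one measured on every array. Its tested probe, on chromosome 2 at 164240195 to 164240254 (mm9), had -1.99, -1.36, -1.38, -0.66 and -0.14 in tumor samples, against 1.49, 2.27, 2.57, 2.93 and 0.16 in normal samples. Normal replicate 6 was the lowest normal sample, close to the highest tumor sample. Rbpjl fell by 2.99 ± 0.53 (SE), or 7.94-fold (limma adjusted p = 0.0309), and by 2.31 with normexp background correction. The call held without tumor replicate 5 (0.0322) and without normal replicate 6 (difference -3.42, 0.00511), and missed the threshold without any of the other 8 samples in turn (differences -3.10 to -2.73, limma adjusted p 0.0510 to 0.0905). The other Rbpjl probe, at 164236749 to 164236808, was well above background on 0 tumor and 5 normal arrays and was at least 1.98-fold lower in tumor (limma adjusted p = 0.158 over probes).

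Bhlha15 had -5.53, -5.33, -5.70, -5.46 and -5.55 in tumor samples, where its probe was not well above background on any array, against -2.35, 0.41, -1.56, -0.86 and -5.87 in normal samples. Normal replicate 6 was not well above background and lay below the tumor samples, while the other 4 normal samples lay above them. The fitted difference was -3.47 ± 0.93 (limma adjusted p = 0.140), with a bound of at least 2.89-fold lower for the group means. With normexp background correction, run here with a constant of 50 added to every signal, it was -1.49 (0.169), smaller in size than that bound. An added constant shrinks log2 differences of dim probes, so the size depends on how background is handled. Without normal replicate 6 the fitted difference was -4.42 (0.00217) and passed. The probe lies on chromosome 5 at 144955175 to 144955234 (mm9). Plasma cells also express Bhlha15. Of 8 plasma cell markers, 0 were called by limma (3 at an unadjusted p under 0.05), with list means of -1.27 to -0.66 in tumor samples and -1.15 to -0.45 in normal samples. The smallest p were those of the receptor Tnfrsf17 (-3.31 ± 0.85, adjusted p = 0.126) and the immunoglobulin chain Jchain (1.51 ± 0.44, 0.169), which differ in direction. The part of plasma cells in the Bhlha15 difference was not tested.

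Nr5a2 had -5.80, -5.49, -6.03, -5.79 and -2.90 in tumor samples, against -1.55, 0.80, 0.22, -0.17 and -3.61 in normal samples. Tumor replicate 5, the 1 tumor array with the probe well above background, overlapped normal replicate 6. Nr5a2 had a fitted difference of -4.34 ± 0.86 (limma adjusted p = 0.0479), the call nearest the threshold. Its size is uncertain, since 5 of 6 tumor arrays gave signal not well above background. The call held without tumor replicate 5 (-4.92, 0.0256) and without normal replicate 6 (-5.03, 0.00797), and was lost without any of the other 8 samples (-4.51 to -3.92, 0.0881 to 0.130). With normexp background correction the difference was -1.84 and missed the threshold (0.0636). The tested probe is on chromosome 1 at 138740903 to 138740962 (mm9). The second probe, at 138741712 to 138741771, was well above background on no array and averaged -5.20 ± 0.67 in tumor and -4.50 ± 0.67 in normal samples (SD, n = 5 each).

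Ptf1a, the factor that names the PTF1 complex, had -5.09, -4.33, -3.16, -4.85 and -2.51 in tumor samples, against -3.69, -3.55, -4.19, -0.63 and -4.81 in normal samples. Its probe was well above background on 1 tumor array (replicate 5) and 1 normal array (replicate 5), and the groups overlapped. Gata4 had -2.92, -5.74, -6.11, -5.86 and -2.77 in tumor samples, against -5.42, -4.33, -1.55, -4.76 and -6.12 in normal samples, and was well above background on 2 tumor arrays and 1 normal array. With no filter on dim probes the differences were -0.62 ± 0.75 for Ptf1a (limma adjusted p = 0.674) and -0.24 ± 0.92 for Gata4 (0.909). Signal so close to background sets no limit on a change of either gene. The Gata4 probe is on chromosome 14 at 63817858 to 63817917 (mm9). The Ptf1a probe is on chromosome 2 at 19368720 to 19368779 (mm9, plus strand) and is printed because the low Ptf1a signal rests on these bases.
Ptf1a probe: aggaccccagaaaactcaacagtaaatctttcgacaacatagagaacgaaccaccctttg

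Of the 10 genes, 6 had a RefSeq promoter window (GRCm38.p6): Ptf1a, Rbpjl, Bhlha15, Nr5a2, Gp2 and Sycn. The 250 bases before the start were searched on both strands. The E-box read by helix-loop-helix factors was searched as CANNTG, and one form of it as CATATG. Cores of Rbpj-type sites were searched as TGGGAA and, separately, as TTTCCC, whose matches can overlap those of the other core's reverse complement. The core read by Nr5a2 was searched as AAGGTCA and that of GATA factors as AGATAA. The E-box, the first Rbpj-type core and the GATA core were each found in 4 of the 6 genes, against 66.2%, 21.6% and 9.99% of 32851 windows. Nr5a2 has 2 windows and was counted when either matched, whereas the shares are of single windows. Its GATA core was in window 1 alone. The other E-box form, the second Rbpj-type core and the Nr5a2 core were found in 0 of 6, against 3.46%, 21.9% and 4.08%. An E-box within 30 bases of either Rbpj-type core, as in sites known for PTF1, was found in Rbpjl alone of the 6, against 8.87% of windows. These are matches of letters and say nothing of binding. The windows of 1 regulator and of 2 granule genes that fell are shown, with the E-box, the first Rbpj-type core and the GATA core in capitals on either strand.
Rbpjl promoter, chr2:164402944-164403193, plus strand: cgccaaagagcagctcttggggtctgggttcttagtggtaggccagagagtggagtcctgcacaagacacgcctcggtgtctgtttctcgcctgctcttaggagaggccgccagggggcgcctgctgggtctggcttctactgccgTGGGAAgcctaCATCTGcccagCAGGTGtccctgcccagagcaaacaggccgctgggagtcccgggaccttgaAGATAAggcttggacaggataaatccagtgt
Gp2 promoter, chr7:119459273-119459522, minus strand: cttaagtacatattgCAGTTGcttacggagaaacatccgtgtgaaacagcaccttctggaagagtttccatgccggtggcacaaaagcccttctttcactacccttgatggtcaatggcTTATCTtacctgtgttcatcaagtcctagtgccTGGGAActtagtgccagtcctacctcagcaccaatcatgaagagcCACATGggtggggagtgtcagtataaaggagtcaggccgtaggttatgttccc
Sycn promoter, chr7:28540635-28540884, plus strand: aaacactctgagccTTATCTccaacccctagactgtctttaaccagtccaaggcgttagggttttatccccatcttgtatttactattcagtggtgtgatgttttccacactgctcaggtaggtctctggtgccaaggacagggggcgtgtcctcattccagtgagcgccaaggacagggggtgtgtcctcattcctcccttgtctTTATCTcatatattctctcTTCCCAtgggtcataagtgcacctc
In Rbpjl the Rbpj-type core lies at -104 and the E-boxes at -93 and -82, counted from the start.

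All 4 granule and secretory genes fell, and their groups did not overlap. Gp2, by the probe on chromosome 7 at 126586058 to 126586117 (mm9), had -3.14, -5.55, -2.74, -2.24 and 0.50 in tumor samples, against 3.46, 5.61, 4.39, 4.76 and 0.77 in normal samples. Tumor replicate 5 and normal replicate 6 were nearly level. Gp2 showed the largest difference of the 8 genes, -6.43 ± 1.11, or 86.3-fold lower (limma adjusted p = 0.0261), and -4.99 with normexp background correction. The call held without tumor replicate 5 (-7.21, 0.0129) and without normal replicate 6 (-7.19, 0.00809), and missed the threshold without any of the other 8 samples (-6.53 to -5.70, 0.0516 to 0.0823). The other Gp2 probe gave -6.90 ± 1.20 (limma adjusted p = 0.0260 over probes). It lies at 126590632 to 126590691 on the minus strand and is printed as another stretch of the same gene that fell.
Gp2 probe: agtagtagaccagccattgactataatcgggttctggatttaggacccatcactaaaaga

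Sycn had -0.89, 0.98, 1.13, 2.95 and 3.46 in tumor samples, against 6.88, 8.68, 7.32, 7.94 and 4.68 in normal samples. It was above background on every array, and the highest tumor sample stayed below normal replicate 6. Sycn fell by 5.57 ± 0.90, or 47.6-fold (limma adjusted p = 0.0182). The call was lost without tumor replicate 2 (-5.44, 0.0551) and without normal replicate 5 (-5.36, 0.0639). The difference was -4.97 without tumor replicate 1 and -6.18 without normal replicate 6. Its probe is on chromosome 7 at 29327165 to 29327224 (mm9).

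Zg16 had 0.70, 1.65, 1.03, 2.03 and 1.94 in tumor samples, against 5.33, 7.35, 6.04, 6.67 and 3.41 in normal samples. The tumor samples lay close together, with an SD of 0.58, against 1.51 in normal samples. Zg16 fell by 4.29 ± 0.64, or 19.6-fold (limma adjusted p = 0.0120), and kept the call without each of the 10 samples in turn (highest adjusted p 0.0424). Without normal replicate 6 its difference was -4.88. Its probe, on chromosome 7 at 134193837 to 134193896 (mm9, minus strand), is printed because this call held in all 10.
Zg16 probe: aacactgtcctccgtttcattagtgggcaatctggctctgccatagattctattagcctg

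Spink3 had -1.82, 0.66, 0.58, 1.79 and 1.40 in tumor samples, against 5.16, 6.85, 5.67, 6.10 and 3.04 in normal samples. Spink3 fell by 4.84 ± 0.79, or 28.7-fold (limma adjusted p = 0.0192). The call was lost without normal replicates 1, 4 and 5 (0.0502, 0.0518 and 0.0667) and without tumor replicate 2 (0.0550), with differences of -4.89 to -4.66. It was -4.26 without tumor replicate 1 and -5.42 without normal replicate 6. Its probe is on chromosome 18 at 43887802 to 43887858 (mm9).

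Cckar had -5.72, -5.53, -5.84, -5.68 and -5.67 in tumor samples, against -1.58, 0.38, -0.23, -0.71 and -3.46 in normal samples. The probe was well above background on 0 tumor arrays and on all 6 normal arrays, normal replicate 6 being the lowest. Cckar was at least 5.49-fold lower in tumor (fitted difference -4.57 ± 0.60, limma adjusted p = 0.00659) and kept the call without each of the 10 samples (highest adjusted p 0.0239). With normexp background correction and its added constant the fitted difference was -1.89 (0.0217), smaller in size than that bound. The size of the fall therefore depends on how background is handled. Without normal replicate 6 the fitted difference was -5.15. Its probe is on chromosome 5 at 54090045 to 54090104 (mm9).

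Of 16 partners of PTF1 and other pancreatic transcription factors, 12 were tested and 1 was called, with a median difference of -0.70. That gene was Onecut1, a factor of the embryonic pancreas, which was well above background on 0 tumor and 5 normal arrays and at least 4.03-fold lower in tumor (limma adjusted p = 0.0306). It passed the filter through the normal arrays alone, so a difference was built into its selection. Its bound rests on the processed signal, and no normexp value is given for it. Its other probe gave -0.98. Rbpj, the ubiquitous partner in PTF1, differed by 0.17 and the E proteins Tcf3 and Tcf12 by 0.37 and -0.36, none of them called. Xbp1, a factor of secretory cells, differed by 0.42.

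Of 7 genes reported as Bhlha15 targets, 5 were tested and 0 called by limma (3 at an unadjusted p under 0.05), with a median of -1.46. Copz2, a vesicle coat subunit, had -1.47 ± 0.41 (adjusted p = 0.154) and Nucb2, a calcium-binding secretory protein, -0.88 ± 0.26 (0.186). Rab3d, a small GTPase of zymogen granules, had 0.12. Of 9 other secretagogue receptors and calcium release genes, 5 were tested and 0 called by limma (1 at an unadjusted p under 0.05), with a median of -0.14. The bombesin receptor Grpr had -0.85 ± 0.31 (adjusted p = 0.287), and the G protein subunit Gnaq -0.25 (0.704). The receptor genes Cckbr, Chrm1, Chrm3 and Vipr1 were not tested.

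Of 14 other non-enzyme exocrine genes, 13 were on the array, 11 were tested and 5 were called, all lower, with a median of -2.11. Pdia2, a disulfide isomerase of acinar cells, fell by 5.28 ± 0.63 (limma adjusted p = 0.00466). Clps, the lipase cofactor colipase, had a difference of -5.30 ± 1.0 (0.0401). Erp27, a noncatalytic protein of the endoplasmic reticulum, fell by 2.97 ± 0.51 (0.0258). Cuzd1, a zymogen granule membrane protein, had 0 tumor arrays well above background and was at least 12.9-fold lower (0.00783). The same held for Serpini2, a pancreatic serpin, at least 8.17-fold lower (0.0401). Cuzd1 and Serpini2 passed the filter through the normal arrays alone, whereas Pdia2, Clps and Erp27 were well above background on all 12 arrays. The bounds of Cuzd1 and Serpini2 rest on the processed signal, and no normexp values are given for them. Of the 14 enzyme genes tested, 12 were called lower, with a median of -6.75 and a range of -8.61 to -3.74. Among them were the elastases Cela1, Cela2a and Cela3b, the carboxypeptidases Cpa1 and Cpb1, the chymotrypsin-like Ctrl and Ctrc, the trypsin Prss2, and the lipases Pnlip, Pnliprp1 and Cel. Markers of islet, ductal and mesothelial or fibroblast cells gave 0 calls in limma. The 5 islet genes tested had a median of -2.10, with list means of -1.76 to -1.06 in tumor samples and -0.46 to 3.67 in normal samples, and 4 had an unadjusted p under 0.05. The smallest p were those of the hormones Ppy (-0.88 ± 0.23, adjusted p = 0.135) and Ins2 (-3.12 ± 0.84, 0.142). Medians were -0.40 over 7 ductal genes and -0.20 over 5 mesothelial or fibroblast genes, with 0 at an unadjusted p under 0.05. The smallest p there were those of Muc1 (-0.87, adjusted p = 0.590) and Krt7 (-0.56, 0.644), and of Dcn (-0.65, 0.585) and Wt1 (0.88, 0.701). Of 8 neutrophil markers, 7 were tested, 1 was called higher in tumor and 3 had an unadjusted p under 0.05, with a median of 1.57. Retnlg, a resistin-like protein of neutrophils, averaged 0.15 ± 1.33 in tumor and -4.19 ± 1.48 in normal samples (SD, n = 5 each, limma adjusted p = 0.0338), and was well above background on 6 tumor and 2 normal arrays. It passed the filter through the tumor arrays alone, so a difference was built into its selection. The list's summed signal, in units of the 75th percentile, was 0.911 to 11.6 in tumor and 0.888 to 2.05 in normal samples. The part of the islet and neutrophil signals in the acinar gene differences was not tested.

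**Figure D2:**
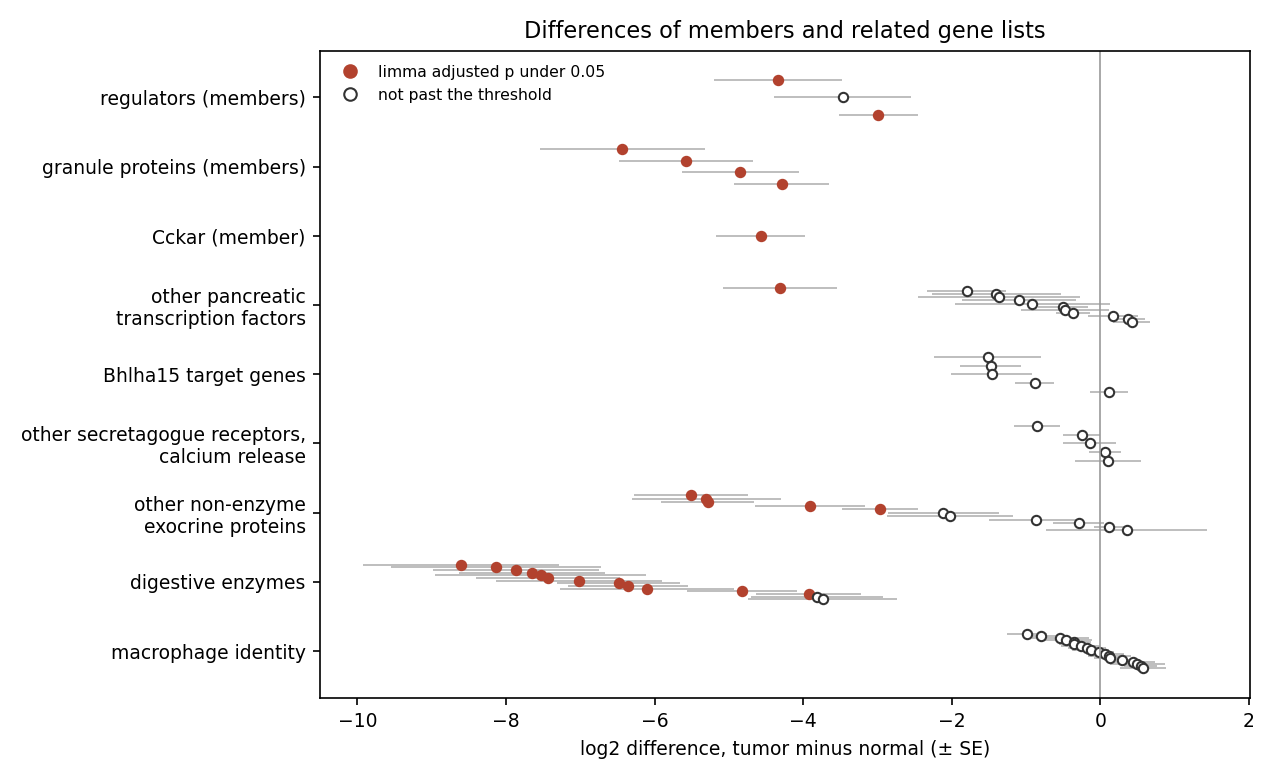
Tumor minus normal difference (log2) of each tested gene, grouped by gene list, with bars of 1 SE and filled points for limma adjusted p under 0.05. The 8 member genes lie from -6.43 to -2.99 and the enzymes from -8.61 to -3.74, while the macrophage identity genes have a median of -0.069.

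In tumor samples the 8 genes summed to 0.00259%, 0.00605%, 0.00637%, 0.0144% and 0.0182% of the signal of all tested genes, against 0.158%, 0.425%, 0.246%, 0.348% and 0.0501% in normal samples. The enzyme shares put the 10 samples in the same order, as a description over samples that share dye and amplification. Normal replicate 6 was the lowest normal sample for 8 of the 8 genes, and the sample of normal replicates 2 and 3 was the highest for 7, with normal replicate 5 highest for Rbpjl. The arrays of normal replicates 2 and 3 were the dimmest of all, with 75th percentile signals of 398 and 430. They had 39.3% and 39.6% of probes well above background. Normal replicate 6 was the brightest array (1547). The part of array brightness and scaling in these ranks was not tested. Among tumor samples, replicate 1 was the lowest for 4 genes and replicate 5 the highest for 4. The 2 arrays of a shared sample name differed by a median of 0.17 in tumor (5 genes above background on both arrays) and 0.12 in normal samples (8 genes).

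**Figure D3:**
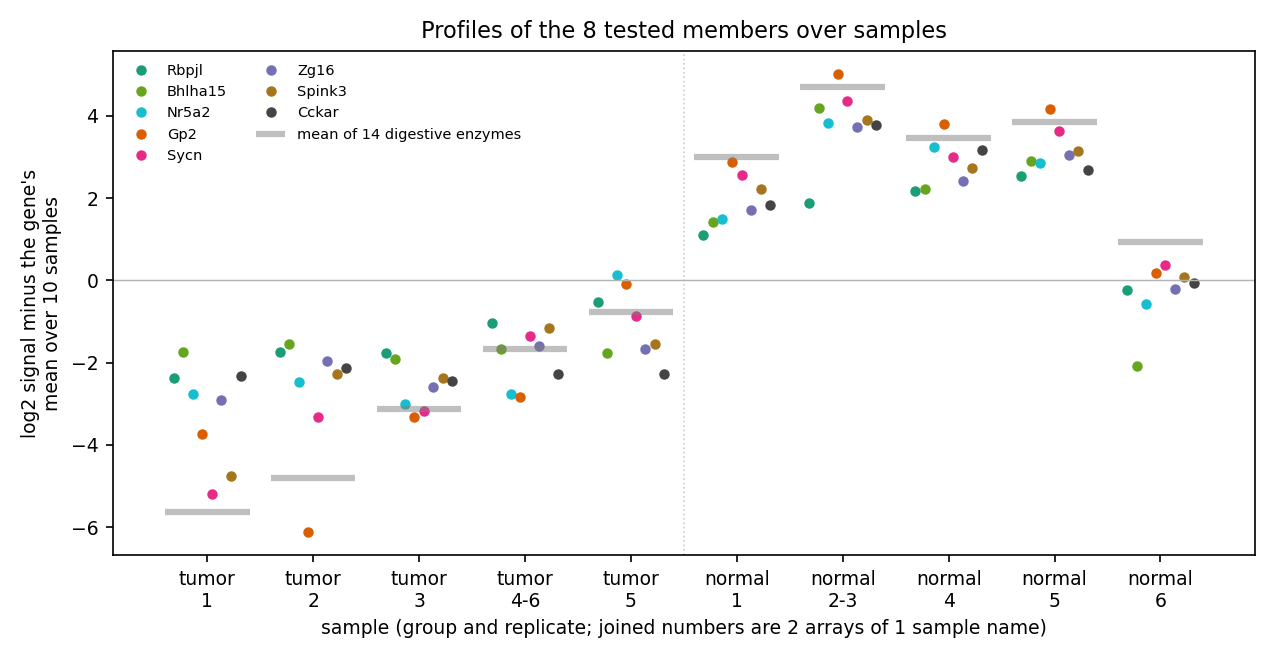
Log2 signal of each tested gene minus its mean over the 10 samples, by sample, with the mean of 14 digestive enzymes as grey bars. Normal replicate 6 lies below the other normal samples for every gene, and tumor replicates 4 with 6 and 5 lie at the upper end of the tumor samples for Sycn, Zg16 and Spink3.

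The profiles were set against those of all other tested genes by the root mean square difference of centred log2 values over the 10 samples. Nearest to Sycn was Cela3b, an elastase (0.593), and nearest to Gp2 was Reg1, an acinar secretory protein (0.807). Zg16 was nearest to Serpini2 (0.448), whose tumor values are background signal, and Spink3 to the kallikrein Klk1b4 (0.536). The kallikrein genes are near-identical copies whose probes may not tell them apart. Rbpjl was nearest to Ndufa4l2 (0.442), then to Erp27 (0.555). Distances of Bhlha15, Nr5a2 and Cckar are not given, since most or all of their tumor values are background signal. Among the other 5 genes the closest pair was Sycn and Spink3 (0.564) and the farthest Rbpjl and Gp2 (2.13).

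The 3 slides each held 2 arrays of either group. Within slide 1 the 8 differences ran from -8.92 to -3.58, within slide 2 from -7.47 to -3.58 and within slide 3 from -3.62 to -1.78. Gp2 had -8.92, -7.47 and -3.62, and Rbpjl -3.58, -3.58 and -1.78 on slides 1, 2 and 3. Slide 3 holds normal replicate 6 together with tumor replicates 5 and 6. Limma passed 0 genes within any slide, and at an unadjusted p under 0.05 it had 8, 8 and 4 of the 8 genes, against 9.7%, 9.54% and 5.82% of all genes. With slide as a term and sample name as a block the differences ran from -6.42 for Gp2 to -2.93 for Rbpjl, and the calls were those of the fit without it. Slides 1 and 2 share the sample of normal replicates 2 and 3, and slides 2 and 3 that of tumor replicates 4 and 6.

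**Figure D4:**
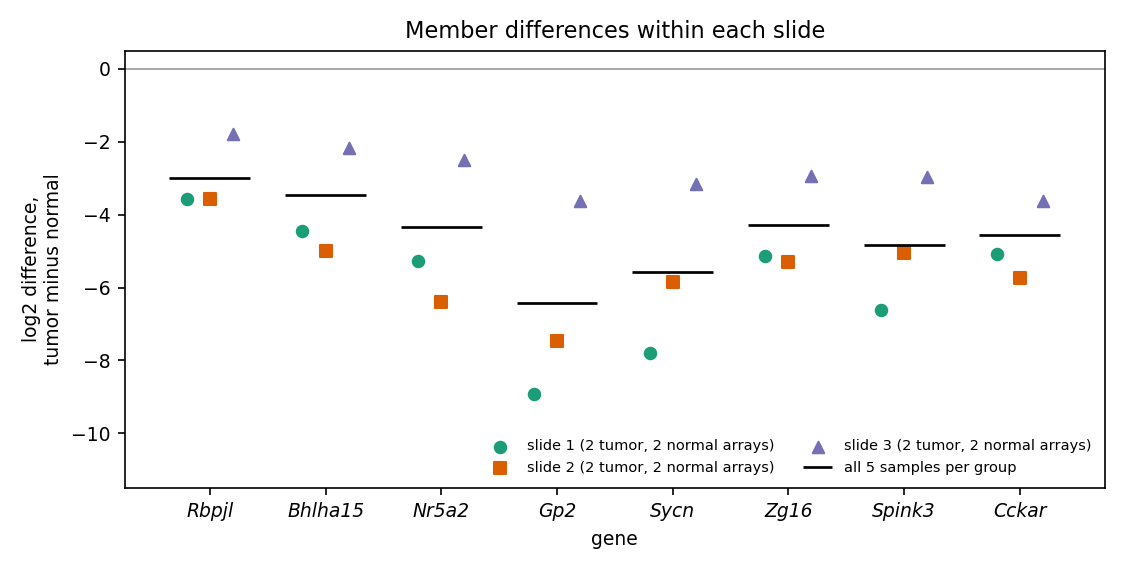
Tumor minus normal difference (log2) of the 8 tested genes within each slide, 2 arrays per group, with the value over all 5 samples per group as a black line. All values are below 0, and those of slide 3 are the smallest in size.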

How the data were processed

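RNA of sorted macrophages was measured on 12 one-colour Agilent arrays. Per the labels' protocols, cells were sorted into lysis buffer, and their cDNA went through whole-transcriptome amplification before Cy5 labelling. Per the file headers, spots were read with Agilent Feature Extraction 11.5.1.1, which gave the intensity values that the authors deposited, the processed signal being already corrected for background. The authors also deposited a log2 table, whose column medians were 7.08 and whose values equalled quantile-normalized log2 processed signals (lowest correlation 0.9999); it served as an alternative.

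Outlier-flagged spots (0.401%) were left out, and 0 spots were saturated. Log2 processed signals were averaged per probe, and each array's 75th percentile was subtracted. The dim filter asked for signal well above background on 3 of 6 arrays in either group and kept 22442 of 39429 probes. A gene's value is that of its brightest probe by mean, and arrays of 1 sample name were averaged. The comparison used limma 3.58.1 under R 4.3.3 (two-sided, Benjamini-Hochberg over 16399 genes), which was tested on simulated data. The number of arrays limits the precision (median SE 0.35). A gene below background on all arrays of a group has only a bound: its fold is the brighter group's mean over the dimmer group's, each dim array taken at the higher of the probe's signal and its lowest signal well above background. Such a bound holds for the processed signal and is no minimum under normexp, which gave smaller differences for Cckar and Bhlha15.

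Probes were named by accession through GRCm38.p6 gene tables, and their positions are those of the files (mm9), which give no exon or intron. All 10 genes, and from each other list the called genes or else the 2 with the smallest p, are named; some genes of the lists are not reported here. The genes and lists were chosen with earlier results of these data known. Alternatives covered background correction, scaling, the dim filter, probes, shared-name arrays, slide, flags, variance model and leaving out each sample. Normexp background correction added a constant of 50 to every signal, which shrinks log2 differences of dim probes.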

Additional observations from a re-analysis of the deposited data

Results flagged for a closer look

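Nr5a2 in tumor samples had 1 value far from the others: tumor replicate 5 at -2.90 on the log2 scale, where the nearest of the other 4 tumor samples was at -5.49. The gap was 0.828 of the group's range, above the critical value of 0.71. It was the 1 tumor array of 6 with the Nr5a2 probe well above background. Of 16 groups examined in this way 1 stood out, and chance picks about 1 in 20.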

How the results depend on the processing

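All 207 differences of the 8 tested genes over the settings run were negative. All settings refit the same 12 arrays, so this count is a description. Bhlha15, Nr5a2 and Cckar passed the filter through the normal arrays alone, so a negative sign was built into their selection. Gp2, Sycn, Zg16, Spink3 and Cckar passed the threshold in 13 of 13 settings other than single slides and left-out samples. With normexp the differences of Cckar, Nr5a2 and Bhlha15 shrank to -1.89, -1.84 and -1.49. Rbpjl missed the threshold with the mean over probes (-3.04, limma adjusted p = 0.0659), and Nr5a2 in 5 settings, with adjusted p of 0.0505 to 0.0701. Bhlha15 passed with 12 arrays as separate samples (-3.87, 0.0339). The count of genes past the threshold, 140, was 214 with normexp, 236 with trended and robust variances and 460 with 12 arrays as separate samples. It was 0, 0 and 0 within slides 1, 2 and 3, where limma had 1590, 1565 and 953 genes at an unadjusted p under 0.05. The members called were then 0, 0 and 0. Leaving out each sample gave 59 to 197 genes, 2 to 8 members (7 with all samples) and 2 to 10 member probes (8 with all samples). The median member difference was -3.15 with normexp, whose added constant shrinks differences of dim probes, and -2.96 within slide 3. The part of that constant in the first value and the cause of the second were not tested. No paired analysis was possible because replicate numbers were given in accession order and pair no samples. Signal near background limits Ptf1a, Gata4 and the tumor values of Bhlha15, Nr5a2 and Cckar.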
